A study of Mus musculus with 4 samples.

Results

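A set of 10 genes that mark pituitary stem cells or carry Notch signals were followed through single-cell RNA of the mouse pituitary: Sox2, Sox9, Notch1, Notch2, Notch3, Hes1, Hey1, Dll1, Jag1 and Dlk2. They were chosen by name, are 10 of the 31053 features counted, and were read in cells with at least 500 detected genes and at most 20% mitochondrial UMIs (unique molecular identifiers, 1 per captured RNA molecule). Such cells fell into stem-gated cells (a UMI of 2 or more of Cyp2f2, Mia, Rbpms and Aldh1a2), melanotroph-gated cells (Pcsk2 and Pomc) and all other cells. The study compared pituitaries of mice overexpressing p25 (p25OE), the fragment of the Cdk5 activator p35, with those of their WT (wild-type) littermates, aged 14 or 40 weeks. The strain label of all 4 samples reads C57BL/6- B6;CBA-BiTg, and the sources used here give neither the promoter that drives p25 nor the number of animals per sample. Each genotype and age is 1 library, so no difference below has a replicate check, and no test across animals was possible. All intervals are 95% intervals that cover counting error only.

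Sox2 and Sox9 are transcription factors of the SOX family that mark the stem cells lining the pituitary cleft, and Sox2 is also known from melanotrophs, the Pomc-expressing cells of the intermediate lobe. In the Notch pathway, a ligand on one cell (Dll1 or Jag1) binds a receptor on its neighbour (Notch1, Notch2 or Notch3), the receptor is cut, and its inner part joins the DNA-binding protein RBPJ and switches on repressors such as Hes1 and Hey1. Dlk2 is a membrane protein related to the delta ligands that lacks the part by which they bind receptors. The pathway is known for keeping progenitors of the pituitary undifferentiated.

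RefSeq windows of the 250 bases before a gene's start (GRCm38.p6) were at hand for 7 of the 10 genes and not for Sox9, Hes1 and Hey1. The windows of 4 are shown, 5′ to 3′ on the gene's strand: Sox2 and Notch1, which were both higher in p25OE stem-gated cells at 14 weeks, and the ligands Dll1 (the second of 2 RefSeq starts) and Jag1, because their windows held a searched motif. Capitals mark a motif match.
Sox2 (chr3:34649745-34649994, plus strand): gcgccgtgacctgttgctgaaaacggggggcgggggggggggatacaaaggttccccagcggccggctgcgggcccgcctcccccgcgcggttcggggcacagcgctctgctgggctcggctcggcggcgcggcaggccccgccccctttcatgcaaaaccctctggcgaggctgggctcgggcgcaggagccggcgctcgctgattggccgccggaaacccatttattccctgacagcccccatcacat
Notch1 (chr2:26503823-26504072, minus strand): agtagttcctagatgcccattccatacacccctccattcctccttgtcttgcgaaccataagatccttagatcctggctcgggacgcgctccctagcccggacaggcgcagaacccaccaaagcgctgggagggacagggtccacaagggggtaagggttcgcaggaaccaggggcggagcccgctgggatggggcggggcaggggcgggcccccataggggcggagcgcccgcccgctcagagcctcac
Dll1 (chr17:15376933-15377182, minus strand): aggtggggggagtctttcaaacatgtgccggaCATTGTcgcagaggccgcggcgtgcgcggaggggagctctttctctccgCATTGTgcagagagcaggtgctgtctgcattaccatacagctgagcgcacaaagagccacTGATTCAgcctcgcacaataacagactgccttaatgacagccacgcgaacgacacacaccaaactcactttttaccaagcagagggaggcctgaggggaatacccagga
Jag1 (chr2:137116521-137116770, minus strand): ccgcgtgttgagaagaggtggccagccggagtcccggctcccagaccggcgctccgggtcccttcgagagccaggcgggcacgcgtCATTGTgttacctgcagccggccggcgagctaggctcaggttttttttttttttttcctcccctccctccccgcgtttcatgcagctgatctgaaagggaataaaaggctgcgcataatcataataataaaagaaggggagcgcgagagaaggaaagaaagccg
The 4 motifs were searched on both strands, with no overlap between those found: RBPJ (TGGGAA), SOX (CATTGT), the E-box of Hes and Hey proteins (CACGTG) and AP-1 (TGANTCA). Dll1 held 2 SOX matches and 1 AP-1 match in this window, and Jag1 held 1 SOX match. No other match lay in the 9 windows of the 7 genes. Of 32851 mouse windows of this length, 21.6% held the RBPJ motif, 10.7% the SOX motif, 6.02% the E-box and 6.75% the AP-1 motif. GC content was 72% in the Sox2 window, 66% in Notch1, 56% in Dll1 and 57.2% in Jag1.

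By library, in the order WT and p25OE at 14 weeks, then WT and p25OE at 40 weeks, which is kept throughout, 6579, 7667, 7927 and 7726 cells were kept, with medians of 10778, 6340, 4940 and 6626 UMIs. Stem-gated cells that did not also pass the melanotroph gate numbered 650, 625, 1374 and 14, which is 9.88% (9.17% to 10.6%), 8.15% (7.55% to 8.79%), 17.3% (16.5% to 18.2%) and 0.181% (0.0991% to 0.304%) of the kept cells. Cdk5r1, the mouse gene of p35, stood at 10.8, 14.4, 10.4 and 17.5 CPM (UMIs per 1000000 UMIs, here of all kept cells), and whether UMIs of the transgene are counted under it is not given in the sources used here. As a check of the melanotroph gate, Pax7, the transcription factor that defines melanotrophs, stood at 164, 225, 92.2 and 149 CPM in gated cells against 0.835, 18.4, 3.02 and 94.2 CPM in other cells. In p25OE at 40 weeks, 6611 of the kept cells were melanotroph-gated. The libraries of an age draw on one list of barcodes and those of the other age on another, and 32 barcodes were shared at 14 weeks and 135 at 40 weeks against 1 to 5 between ages. The labels name one kit version for all 4 libraries and do not say which were prepared in the same run. Age and barcode list cannot be told apart.

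The RNA of other cell types found within the stem gate differed between the libraries. Gh, the growth hormone of somatotrophs, took 14.1%, 5.61%, 18.9% and 1.48% of the UMIs of stem-gated cells. In the WT library at 40 weeks the gate gene Mia also stood at 94.8 CPM in other cells, against 4.48, 4.48 and 9.12 CPM in the other libraries, and only 639 of the 1374 stem-gated cells there (46.5%) held 3 or more gate genes, against 84.6% and 77.1% at 14 weeks. Macrophage genes, at least 5 of 7, were found in 38, 51, 180 and 0 stem-gated cells. Results in these cells are therefore given also for hormone-low cells (Gh and Prl together under 10% of a cell's UMIs and fewer than 5 macrophage genes; 389, 470, 331 and 13 cells) or for cells with 3 or more gate genes.

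All 10 genes were first placed among the cell groups. UMIs of a 3′ library count molecules, so CPM are not divided by gene length. Of the 8 with at least 20 UMIs in each library with enough cells of both groups, 8 were at least 1.5-fold higher in stem-gated than in other cells in each of the 3 such libraries, where 14% of the 14857 genes tested were. Sox9 stood highest over other cells, with 76.5-, 94.2- and 23.7-fold higher CPM, and Notch3 followed with 70.5-, 58.0- and 11.7-fold. Hey1 was 39.8-, 48.5- and 6.57-fold higher, Sox2 43.9-, 24.2- and 12.6-fold, and Hes1 23.3-, 25- and 9.11-fold. The smallest ratios were those of Notch2, at 6.16, 6.99 and 3.21, and Jag1, at 4.27, 7.41 and 1.87. Each of these 8 ratios was lowest in the WT library at 40 weeks, the library with the highest Mia level in other cells. Other cells are pooled here, and single cell types among them stood above stem-gated cells for some members. These were Notch2 and Jag1 in macrophages and Notch1 in T or NK cells of WT at 14 weeks, and Notch1 and Hes1 in endothelial cells of p25OE at 14 weeks. Dll1 and Dlk2 had too few UMIs for this count. The 14 stem-gated cells of p25OE at 40 weeks entered no ratio.

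**Figure D1:**
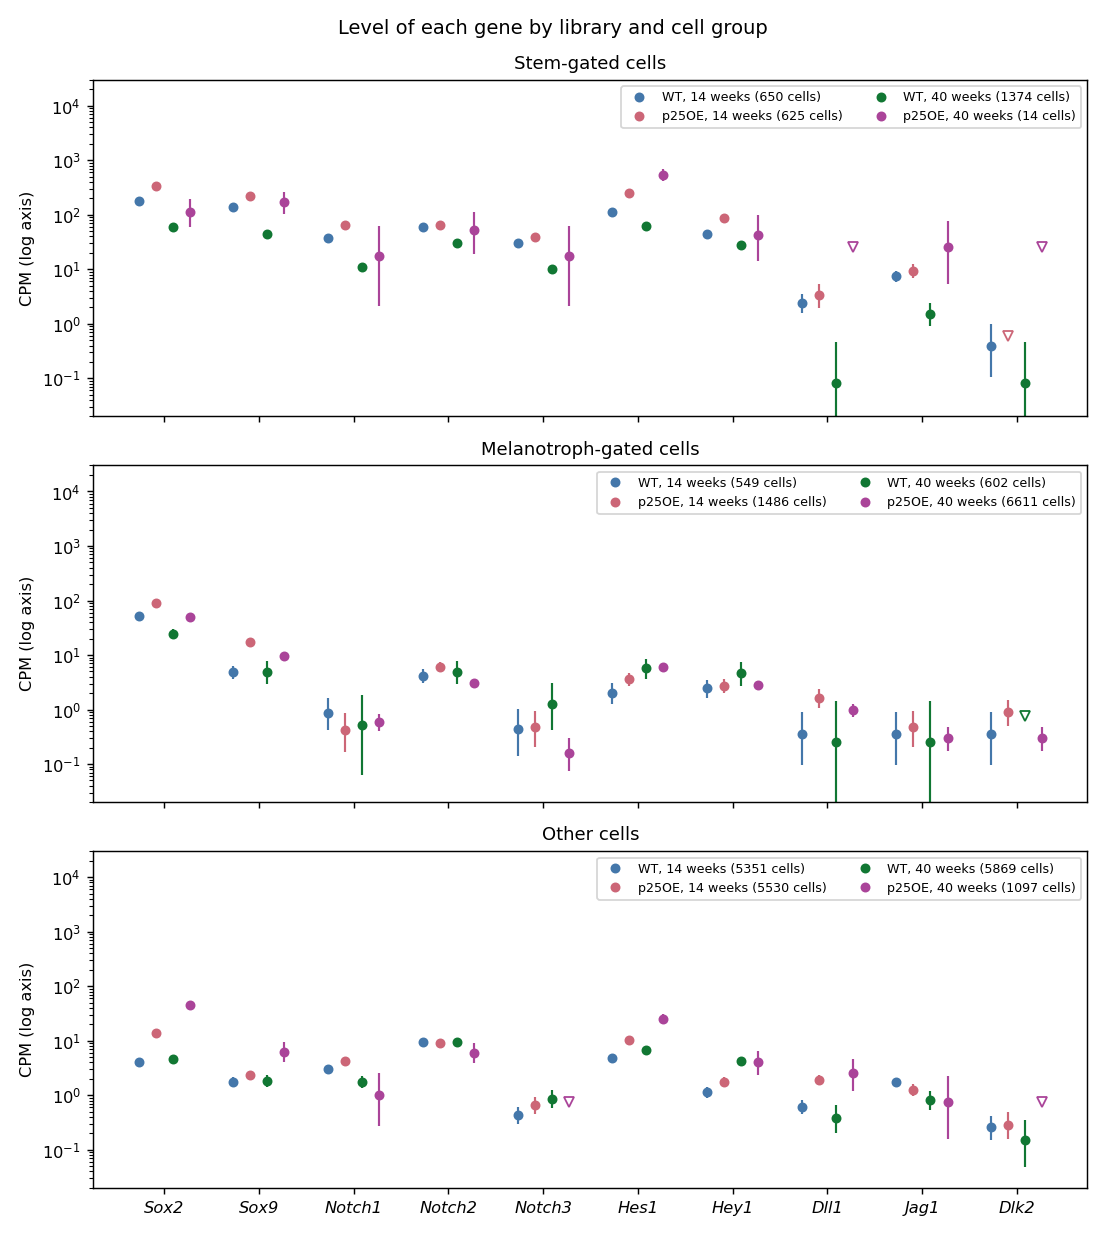
Level of each gene in CPM (log axis) by library in stem-gated, melanotroph-gated and other cells; points are 1 library each, lines are exact Poisson intervals, and open triangles mark the limit that a count of 0 allows (3 UMIs). Of the groups drawn, stem-gated cells lead for 8 genes in the 3 libraries with enough of them. Single cell types pooled in the other cells can stand higher. Sox2 is the one member over 20 CPM in melanotroph-gated cells of every library.

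The stem cell factor Sox2 stood in stem-gated cells at 180, 333, 58.9 and 112 CPM, the last from 13 UMIs in 14 cells. The p25OE library at 14 weeks was the highest of the 4 and WT at 40 weeks the lowest. Between the 14-week libraries, with levels scaled so that the median gene of the stem-gated cells does not differ (scaled CPM), Sox2 stood at 276 in p25OE against 160 in WT, a ratio of 1.73 (1.62 to 1.85). In hormone-low cells the ratio was 1.52 (1.40 to 1.64). Sox9 stood at 137, 218, 44.0 and 172 CPM, in the same order of libraries for the 3 with 50 or more cells. Its scaled ratio at 14 weeks was 1.49 (1.38 to 1.62), just under the 1.5-fold from which a gene was counted, and 1.22 (1.11 to 1.34) in hormone-low cells. Plain CPM, without the scaling, put Sox9 over that line.

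Of the receptors, Notch1 stood in stem-gated cells at 37.8, 64.4 and 11.2 CPM in the libraries with enough cells, with 2 UMIs in p25OE at 40 weeks. It was the one receptor that differed by 1.5-fold at 14 weeks, with a ratio of 1.60 (1.37 to 1.85). That ratio was 1.21 (1.02 to 1.45) in hormone-low cells, which ends the call, and 1.45 (1.24 to 1.70) without the 5% of cells with the most UMIs in each library. Notch2 stood at 59.1, 64.6 and 30.0 CPM, and its ratio at 14 weeks was 1.02 (0.891 to 1.17). Notch3 stood at 30.5, 38.3 and 10.1 CPM, with a ratio of 1.18 (0.980 to 1.41). The intervals of Notch2 and Notch3 leave out a 1.5-fold difference, as far as counting error goes.

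The targets Hes1 and Hey1 showed the largest and second-largest ratio of the members at 14 weeks. Hes1, a repressor that a cut Notch receptor switches on, stood at 112, 254 and 61.1 CPM, and at 533 CPM in the 14 cells of p25OE at 40 weeks, from 62 UMIs in 10 cells. The p25OE cells of 14 weeks held 1281 UMIs in 625 cells against 1149 UMIs in 650 deeper WT cells. The scaled ratio was 2.13 (1.97 to 2.31), and 1.85 (1.68 to 2.04) in hormone-low cells. Hey1, a related repressor, stood at 45.3, 86.2 and 28.3 CPM, with a ratio of 1.78 (1.56 to 2.04), and of 1.51 (1.29 to 1.76) in hormone-low cells. Genes of the early response to stimulation or dissociation moved with them: 8 of the 9 listed were higher in the p25OE library, among them Jun (2.88-fold), Fos (2.03-fold) and Ier2 (2.85-fold). The part of this response in the ratios of Hes1 and Hey1 was not tested.

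The ligands were rare in stem-gated cells. Dll1 had 25, 17, 1 and 0 UMIs, which is 2.43, 3.38 and 0.0838 CPM in the libraries with enough cells. Jag1 had 77, 47, 18 and 3 UMIs, or 7.50, 9.34 and 1.51 CPM. At 14 weeks their ratios were 1.3 (0.658 to 2.50) and 1.17 (0.794 to 1.70), with intervals that hold both no difference and 1.5-fold. Dlk2 had 4, 0, 1 and 0 UMIs there. The 0 of p25OE at 14 weeks allows up to 0.596 CPM and does not part it from the 0.389 CPM of WT.

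Counted together at 14 weeks, 4 of the 9 members with at least 20 UMIs were higher in p25OE stem-gated cells (Sox2, Notch1, Hes1, Hey1), against 10.3% of the 14119 genes tested. None was lower, against 7.37%. Here and below a gene is called higher or lower from 1.5-fold on with an interval that leaves out 1. In hormone-low cells 3 of 9 were higher (Sox2, Hes1, Hey1), against 7.59%. Plain CPM adds Sox9 to the 4, and calls 13.2% of all genes higher and 5.65% lower. The members' median log2 ratio was 0.58, and that of all genes tested 0.01. Of the 45 other Notch pathway genes, 9 were higher and 1 lower; their median was 0.09. The 3 highest were Dll4 (23 against 11 UMIs, 4-fold), Dll3 (14 against 7 UMIs, 3.82-fold), both of the delta family, and Nrarp (192 against 139 UMIs, 2.64-fold), a feedback inhibitor that Notch switches on. Dlk1, a relative of Dlk2, was 1.83-fold lower. Maml3, a coactivator, had a ratio of 0.738. Of the stem list, 37 of 41 genes were tested, 11 were higher and 1 lower; their median was 0.35. Its highest were Lcn2 (2.61-fold), Tead2 (2.50-fold) and Vim (2.26-fold), and its lowest was Nes (2.61-fold lower), an intermediate filament gene of neural progenitors.

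**Figure D2:**
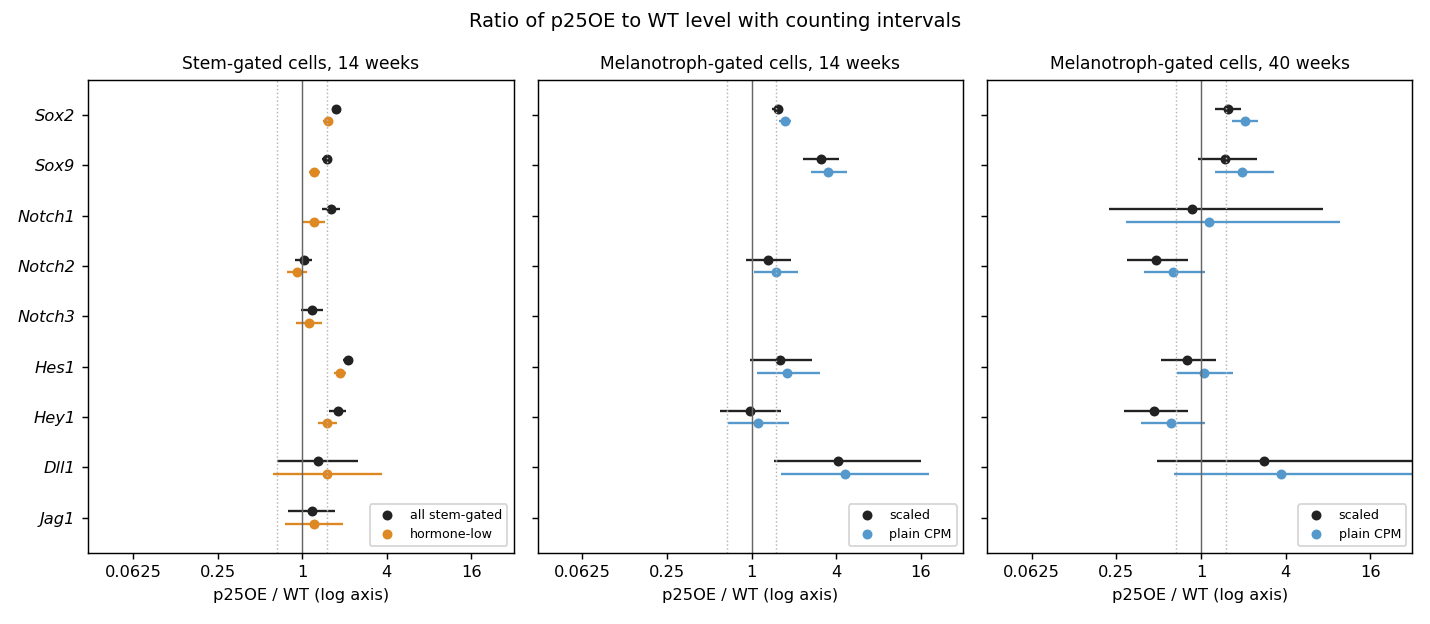
Ratio of p25OE to WT level (log axis) for the members with enough UMIs, 1 library over 1 library, in stem-gated cells at 14 weeks and in melanotroph-gated cells at both ages; points are ratios, bars exact counting intervals, dotted lines mark 1.5-fold either way, and Dlk2 is not drawn. Hes1, Hey1 and Sox2 lie beyond 1.5-fold in stem-gated cells in both sets of cells, while Notch1 does so in all stem-gated cells but not in hormone-low ones.

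Detection per cell was read after each cell was thinned to 1000 UMIs, with macrophage-gated cells as the background. A UMI of Sox2 was found in 23.8% (20.6% to 27.3%) and 29.1% of stem-gated cells at 14 weeks, 6.49% in WT at 40 weeks and 14.3% (2 of 14 cells) in p25OE at 40 weeks. In macrophage-gated cells those shares were 0.532%, 0.549%, 0.421% and 1.38%. Before thinning 74.0%, 71.5%, 27.0% and 42.9% of stem-gated cells had one, at medians of 11559, 5060, 7317 and 7029.5 UMIs. Hes1 was found in 13.6% and 20.7% of thinned stem-gated cells at 14 weeks against 3.90% and 3.84% of macrophage-gated cells, which also use it. Sox9 was found in 15.5% and 21.1%, against 0.177% and 0.137%. Sox9 turned up more often in cells with a Sox2 UMI than in those without, with intervals that overlap in each library. The shares were 22.7% (16.4% to 30.2%) against 13.2% (10.3% to 16.5%) in WT at 14 weeks. They were 27.1% (20.7% to 34.2%) against 18.6% (15.1% to 22.5%) in p25OE, and 12.4% (6.33% to 21.0%) against 5.07% (3.93% to 6.41%) in WT at 40 weeks. For Hes1 and Hey1 the intervals of cells with and without Hes1 lay apart only in WT at 40 weeks. Those of cells with Hes1 overlapped between the libraries. At 14 weeks Hey1 was found in 4.55% (1.25% to 11.2%) of WT stem-gated cells with Hes1 against 5.37% (3.65% to 7.57%) of those without. In p25OE it was found in 11.6% (6.66% to 18.5%) against 9.94% (7.44% to 12.9%). In WT at 40 weeks it was found in 8.85% (4.33% to 15.7%) of those with Hes1 against 2.94% (2.08% to 4.03%) of those without, which is 10 of 113 cells in the first case. Only 46.5% of stem-gated cells of that library held 3 or more gate genes. The part of other cell types within the gate in the shares of Sox9 and Hey1 was not tested.

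Stem-gated WT cells were then compared between ages. With the gate of 2 or more genes, 6 of 9 members were lower at 40 weeks, against 17.2% of the 14345 genes tested, and none was higher, against 19.7%. Haemoglobin UMIs, a sign of red blood cells or of their free RNA, moved with this comparison, at 43.4 per 10000 UMIs of stem-gated cells in WT at 40 weeks against 0.0185 at 14 weeks, and their part in the ratios was not tested. Sox2 was 1.98-fold lower, Sox9 2.01-fold, Notch1 2.18-fold, Notch3 1.95-fold, Jag1 3.22-fold (18 against 77 UMIs), and Dll1 had 1 UMI against 25. Dll1 thus passed the minimum of 20 UMIs only through the 14-week library. Notch2 (ratio 0.783), Hes1 (0.843) and Hey1 (0.965) did not reach 1.5-fold. Among cells with 3 or more gate genes (639 and 550), 3 were lower, against 14.8% of genes: Notch1 (0.648, 0.522 to 0.8), Jag1 (0.409, 0.218 to 0.718) and Dll1. There Sox2 had a ratio of 0.717, Sox9 of 0.733 and Notch3 of 0.731, while Hes1 at 1.23 (1.11 to 1.36) and Hey1 at 1.37 (1.18 to 1.59) turned to above 1. In hormone-low cells of 2 or more gate genes (331 and 389), Sox2 (0.654), Sox9 (0.655) and Notch1 (0.504) were lower, against 17.2% of genes. With the gate without Mia, only Jag1 and Dll1 were lower, against 15.2%, and Notch1 (0.668) was not called. With hormone-low cells of 3 or more gate genes (248 and 344), only Notch1 was lower by the rule (0.622, 0.461 to 0.828), against 17.2% of genes, and Hes1 and Hey1 stood at 1.32 and 1.46. Without the scaling, plain CPM lowers every ratio of this comparison by 0.63 on the log2 scale, and all 9 members are then lower, as are 48.9% of genes, while 4.73% are higher.

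**Figure D3:**
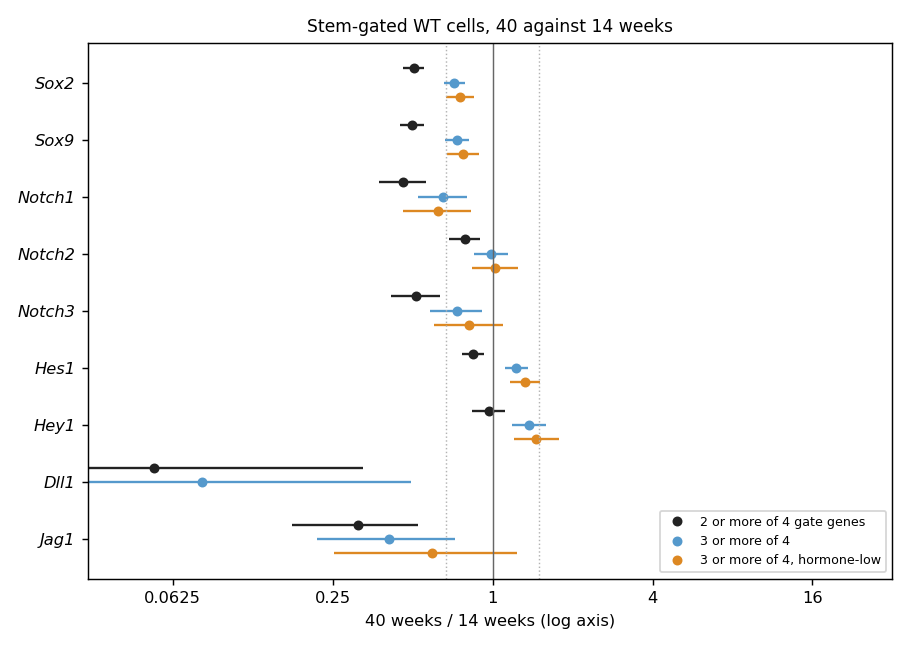
Ratio of the level at 40 weeks to that at 14 weeks in stem-gated WT cells (log axis), 1 library over 1 library, under 3 versions of the gate; points are ratios, bars exact counting intervals, and dotted lines mark 1.5-fold. Hes1 and Hey1 move from below 1 to above 1 with the stricter gate, while Notch1, Sox2 and Sox9 stay below 1.

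Among the other Notch genes, 6 of 44 were higher and 9 lower with the gate of 2 or more genes. Of all genes tested, 19.7% were higher and 17.2% lower. Numb, which opposes the receptor, was 4.23-fold lower, Spen, a corepressor, 2.69-fold and Hes5, another target, 3.01-fold (5 against 20 UMIs). Dll3 (29 against 7 UMIs, 5.5-fold), Hes6 (2.11-fold) and Notch4 (2.05-fold) were higher. Of 38 genes of the stem list, 3 were higher, S100b (40 against 2 UMIs), S100a1 (2.18-fold) and Lcn2 (1.99-fold), and 16 lower, among them Cdh1 (3.26-fold) and Egfr (2.58-fold). The share of stem-gated cells was itself higher in this WT library, and it was 8.06% with 3 or more gate genes, against 8.36% in WT and 6.29% in p25OE at 14 weeks.

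In melanotroph-gated cells, Sox2 was the leading member in every library, at 51.2, 88.6, 24.5 and 50.1 CPM from 586, 1472, 95 and 2814 UMIs. Its level was 28.4% (25.8% to 31.1%) of that of stem-gated cells in WT and 26.6% (24.8% to 28.6%) in p25OE at 14 weeks. The stem genes listed as a check and not used by the gate spread to both sides of that share. In WT at 14 weeks Cpxm2 stood at 0.406%, Lcn2 at 0.385% and Aldoc at 5.21% of the stem-gated level, but the keratin gene Krt8 at 51.3%, Cd9 at 34.5% and the epithelial adhesion gene Epcam at 63.7%. Sox2 was also found in 6.22%, 7.83%, 1.83% and 5.07% of thinned melanotroph-gated cells, more than in the macrophage-gated cells of each library. At 40 weeks the intervals overlapped. They were 0.916% to 3.25% against 0.0870% to 1.23% in WT, and 4.55% to 5.63% against 0.167% to 4.89% in p25OE. At 14 weeks the scaled level was 74.5 in p25OE against 48.6 in WT, a ratio of 1.53 (1.39 to 1.69). With the Pcsk2 threshold of the gate doubled to 0.1% it was 1.43 (1.29 to 1.59), under the 1.5-fold line. At 40 weeks it was 48.8 against 31.5, a ratio of 1.55 (1.26 to 1.92), so p25OE was the higher library at both ages. The WT library at 40 weeks is the one with the highest Mia level in other cells. Haemoglobin took 20.4 per 10000 UMIs of its melanotroph-gated cells against 0.00249 in p25OE, and the part of such RNA in the Sox2 ratio was not tested.

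Sox9 stood at 4.89, 17.2, 4.91 and 9.67 CPM in melanotroph-gated cells, highest in p25OE at 14 weeks. The ratio at 14 weeks was 3.11 (2.33 to 4.22), from 286 UMIs in 189 cells against 56 UMIs in 50 cells. At 40 weeks it was 1.49 (0.948 to 2.50). Mia moved with it, with 22.2 CPM in p25OE against 4.63 CPM in WT at 14 weeks (4.24-fold after the scaling). Of the other gate genes, Rbpms had 37 against 16 UMIs, Cyp2f2 17 against 14 and Aldh1a2 9 against 7. These came from 16606685 UMIs in p25OE and 11449627 in WT, so Cyp2f2 and Aldh1a2 were not higher per UMI in p25OE. Sox9 stood at 3.58% (2.69% to 4.67%) of its stem-gated level in WT and at 7.90% (6.91% to 9%) in p25OE at 14 weeks, between Cpxm2 (0.569% in p25OE) and Krt8 (46.2%). The part of carried-over stem cell RNA in the Sox9 values was not tested. After thinning, cells with both Sox2 and Sox9 were too few to read: 1 of 547, 0 of 1482, 0 of 602 and 5 of 6567.

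**Figure D4:**
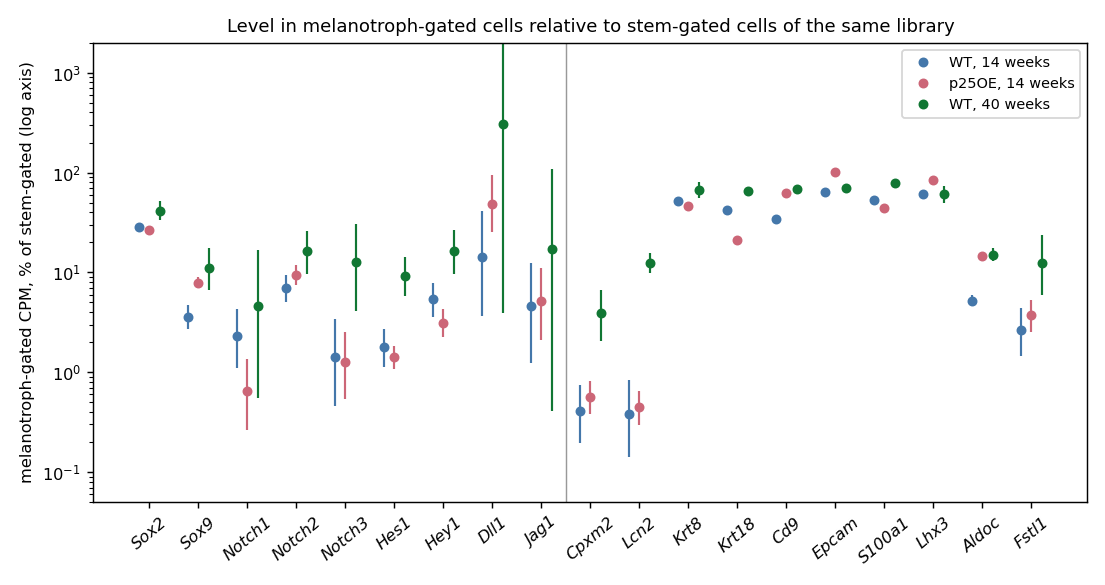
Level in melanotroph-gated cells as a percentage of that in stem-gated cells of the same library (log axis), for 9 members (left of the line) and 10 listed stem genes not used by the gate, those with at least 100 UMIs in stem-gated cells of each library drawn; points are 1 library each and lines exact counting intervals, cut off at the axis. At 14 weeks Sox2 lies at 28.4% and 26.6%, above Sox9 and Notch2 and above Cpxm2 and Lcn2, and below Epcam and Lhx3.

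Receptors and targets stood lower in melanotroph-gated than in stem-gated cells of the 3 libraries with enough of both, and Notch1 and Notch3 were the rarest. Notch2 was the highest receptor at 4.10, 6.08, 4.91 and 3.10 CPM, with ratios of 1.31 (0.918 to 1.89) at 14 and 0.479 (0.298 to 0.815) at 40 weeks. Notch1 had 10, 7, 2 and 33 UMIs and Notch3 had 5, 8, 5 and 9. Hes1 stood at 2.01, 3.61, 5.68 and 5.95 CPM, and its ratios, 1.59 (0.968 to 2.69) and 0.794 (0.516 to 1.28), both have intervals that hold 1. Hey1 stood at 2.45, 2.71, 4.65 and 2.85 CPM, with ratios of 0.979 and 0.465 (0.285 to 0.804). The WT library at 40 weeks, on which the lower calls of Notch2 and Hey1 rest, had 19 and 18 UMIs of them and is the one with the highest Mia level in other cells. Haemoglobin took 20.4 per 10000 UMIs of its melanotroph-gated cells against 0.00249 in p25OE. The part of such RNA in these calls was not tested. With plain CPM neither call held.

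Dll1 was the ligand that differed in these cells. It had 4 and 27 UMIs at 14 weeks, a ratio of 4.11 (1.43 to 16.2), and 1 and 54 UMIs at 40 weeks, a ratio of 2.82 (0.486 to 114). As a mean of per-cell CPM the ratio at 14 weeks was 1.67 (0.582 to 6.57), which ends the call. Jag1 had 4, 8, 1 and 17 UMIs. Dlk2 had 4, 15, 0 and 17 UMIs, too few at each age to be counted. Both p25OE libraries held more melanotroph-gated cells, so their UMI counts are larger at the same level.

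Counted together in melanotroph-gated cells, 3 of 6 members with enough UMIs were higher at 14 weeks (Sox2, Sox9, Dll1), against 15.3% of 14576 genes, and 0 were lower, against 7.83%. Dll1 entered this count only through its UMIs in p25OE (27 against 4 in WT), and its call ended with the mean of per-cell CPM. At 40 weeks 1 of 7 was higher (Sox2), against 14.4% of 15583 genes, and 2 were lower (Notch2, Hey1), against 13.7%. Plain CPM moves all ratios up by 0.18 at 14 and 0.40 at 40 weeks on the log2 scale, and then calls 22% of genes higher and 4.46% lower in the 14-week pair, and 31.5% and 7.07% in the 40-week pair. On that scale Sox2, Sox9, Hes1 and Dll1 were higher at 14 weeks and Sox2 and Sox9 at 40 weeks, with no member lower.

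Among other Notch genes in melanotroph-gated cells, 8 of 42 were called higher in the 14-week p25OE library and 4 lower. Of all genes tested, 15.3% were higher and 7.83% lower. In the 40-week library the Notch counts were 10 and 5 of 43, against 14.4% and 13.7% of all genes. Nrarp, the feedback inhibitor, was higher at 14 weeks (98 against 9 UMIs, 6.64-fold) and at 40 weeks (426 against 4 UMIs, 5.57-fold). Lfng, which adds sugars to the receptor, was 4.92-fold and 4.28-fold higher, and Mfng, of the same family, was 4.99-fold higher at 40 weeks. Neurl1b, which helps take up ligands, was 4.40-fold higher at 14 weeks. Dlk1 was 3.23-fold lower at 14 and 9.44-fold lower at 40 weeks, and Gh UMIs were also fewer in the p25OE cells, with 0.851% against 2.57% and 0.0690% against 3.17% of UMIs. Psen2 (1.67-fold) and Hes7 (1.99-fold) were lower at 14 weeks, and Heyl (6.69-fold, 20 against 7 UMIs) and Aph1c (2.25-fold) at 40 weeks. Of the stem list, 9 of 33 genes were higher in the younger p25OE library and 5 lower; in the older one 11 and 8 of 35. Cxcr4 (9.34-fold), Aldoc (3.10-fold) and Lcn2 (28 against 6 UMIs, 2.84-fold) led at 14 weeks, and Prrx1 (4.31-fold), Lhx3 (3.53-fold) and Krt8 (2.97-fold) at 40 weeks. The lowest were Nes (8.53-fold), Yap1 (3.75-fold) and Cd24a (2.81-fold) at 14 weeks, and Aldh1a1 (17.0-fold), Nes (14.8-fold) and Fstl1 (7.65-fold) at 40 weeks.

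Dividing melanotroph-gated cells, in which thinning left UMIs of 2 or more of 10 mitosis genes, were 1 of 547, 46 of 1482, 0 of 602 and 364 of 6567. In p25OE at 14 weeks Sox2 stood at 117 CPM in dividing against 87.4 CPM in other melanotroph-gated cells, a ratio of 1.34 (1.06 to 1.68). At 40 weeks it stood at 65.2 against 49.1 CPM, a ratio of 1.33 (1.15 to 1.52). Sox9 had ratios of 0.910 (0.449 to 1.65) and 0.819 (0.539 to 1.2). Notch2 was higher in dividing cells at 40 weeks, with 26 UMIs and 7.44 CPM against 2.79 CPM (2.66-fold, 1.68 to 4.06), and stood at 7.15 against 5.97 CPM at 14 weeks. Dlk2, rare as it was, had 5 of its 17 UMIs at 40 weeks and 3 of its 15 at 14 weeks in dividing cells, ratios of 6.27 (1.73 to 19.1) and 5.69 (1.03 to 21.1). Dividing cells were deeper, with medians of 8502 against 7086 UMIs at 40 weeks. The ratios between dividing and other cells are of plain CPM, without the scaling, and were not set against a share of all genes. The part of a shift of all genes in them was not tested.

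The remaining cells were parted by marker gates, with cells passing 2 gates left out. Notch2 was present in most of them: in WT at 14 weeks it stood at 70.9 CPM in macrophages, 37.8 in T or NK cells, 21.3 in corticotrophs and 9.36 in somatotrophs, but at 0.824 in lactotrophs. Notch1 stood at 65.2 CPM in T or NK cells and 41.6 in macrophages, and at 0.459 CPM in somatotrophs, 0.284 in lactotrophs and 0.422 in corticotrophs of that library. Jag1 stood at 28.0 CPM in WT and 8.35 CPM in p25OE macrophages at 14 weeks. Among hormone cells Dll1 was highest in gonadotrophs, at 21.7 CPM (43 cells) in WT and 15.1 CPM (80 cells) in p25OE at 14 weeks. Sox2 stood at 15.4, 11.7 and 12.5 CPM in corticotrophs of the 3 libraries with 50 or more of them, against 4.07, 10.9 and 3.86 CPM in macrophages, so in p25OE at 14 weeks it was near the macrophage level. Endothelial cells, 49 in p25OE at 14 weeks, held Notch1 at 208 CPM and Hes1 at 325 CPM. In the 1097 other cells of p25OE at 40 weeks Sox2 stood at 45.3 CPM, where Pax7 also stood at 94.2 CPM and 839 cells passed no further gate.

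**Figure D5:**
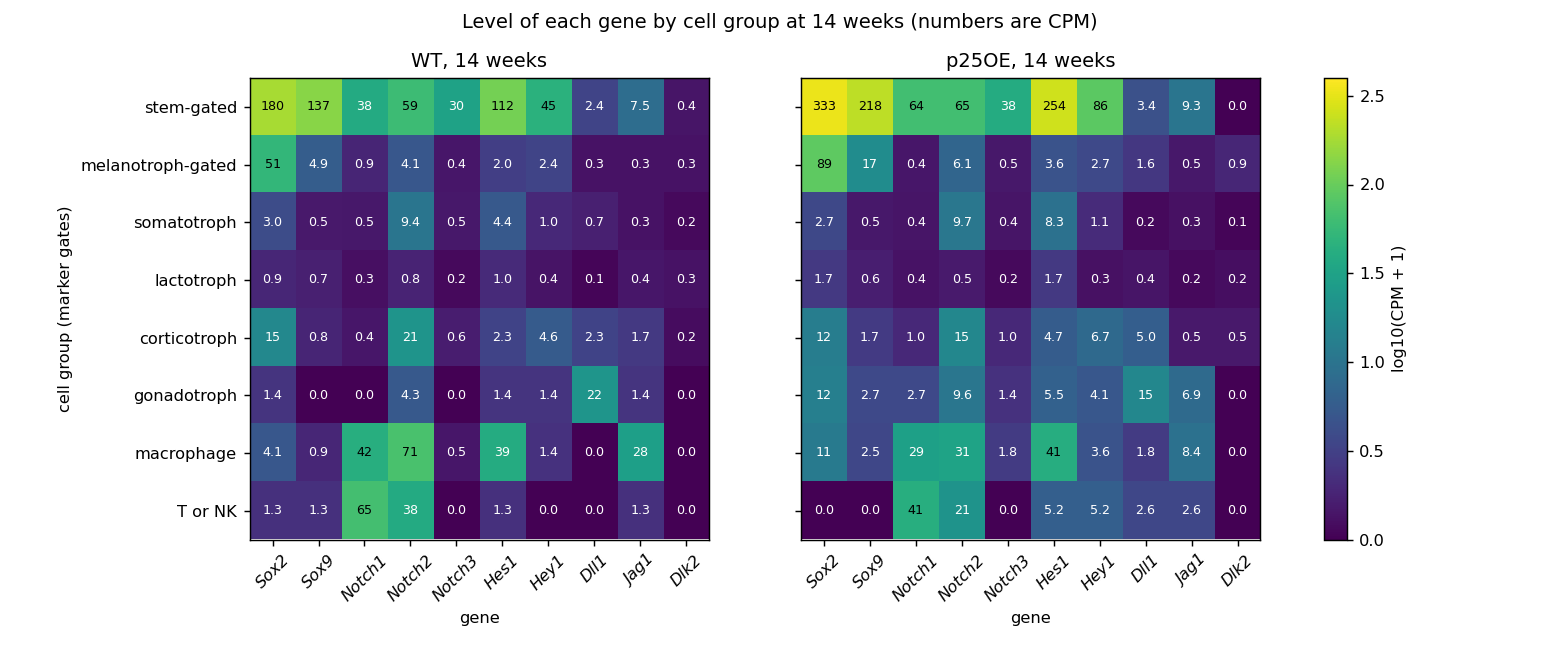
Level of each member in 8 marker-gated cell groups of the 14-week libraries; colour is log10(CPM + 1) and the printed numbers are CPM. Sox9, Notch3 and Hey1 are highest in stem-gated cells, Notch2 spreads to macrophages, T or NK cells, corticotrophs and somatotrophs, and Dll1 is highest in gonadotrophs.

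Over 24 points, each 1 cell group in 1 library with at least 50 cells, the genes whose log2(CPM + 10) ran most alike were Nfib, Vangl2 and Ndrg2 for Sox2 (Pearson r 0.97, 0.96 and 0.95) and Car8, Sertm1 and Aqp4 for Sox9 (0.99, 0.98 and 0.97). Among receptors they were Samd9l, Gdpd5 and Gbp5 for Notch1 (0.95, 0.94 and 0.94), Fam129a, Fam3c and Eps15 for Notch2 (0.90, 0.88 and 0.87), and Boc, Gm266 and Mpzl2 for Notch3 (0.99 each). Hes1 ran with Cbr2, Anpep and Fzd7 (0.96, 0.95 and 0.94), and Hey1 with Cxcl12, Rassf10 and the member Notch3 (0.96, 0.95 and 0.95). For the ligands they were Ntf5 and Foxl2 for Dll1 (0.91 each) and Samd4, Wtip and Trpv4 for Jag1 (0.88, 0.87 and 0.86). Points of a library share its depth and background RNA, so these values are descriptions. Dlk2 had too few UMIs for such a ranking.

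Of the members, 3 share their locus with a counted neighbour on the other strand: Notch3 with Gm17276, Dll1 with A930024N18Rik and Dlk2 with Abcc10 (GRCm38, GENCODE). Sox2 lies on chromosome 3 at 34650405 to 34652461, inside the non-coding gene Sox2ot on the same strand, which is not among the features. Hes1 (chromosome 16, 30064384 to 30067796), Hey1 (chromosome 3, 8663359 to 8667256) and Sox9 (chromosome 11, 112782224 to 112787760) overlap no other annotated gene.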

How the data were processed

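The deposited matrices hold UMI counts per gene and barcode, whole numbers, per the file headers (software version 3.0.1). The submitters' processing notes name Cell Ranger 3.0.2 and the mm10 build. Barcodes with at least 500 genes and at most 20% mitochondrial UMIs were kept (Python 3.11.15, numpy, scipy, pandas). The melanotroph gate asked for at least 2 UMIs and 0.05% of UMIs of Pcsk2 and 1% of Pomc. No doublet caller was run, and cells passing both gates (29, 26, 82 and 4) were set apart. UMIs were summed per library and group and scaled by the median of ratios over libraries with at least 50 cells. Ratios carry exact conditional intervals of 2 Poisson counts, and shares exact Clopper-Pearson intervals. Genes needed at least 20 UMIs over both libraries. The code was checked on simulated data. UMIs without a second library per group leave only counting error. The members and lists were chosen with earlier results of these data known. Named are all members, up to 3 highest and lowest genes of the Notch pathway and stem lists per comparison whose interval left out 1, the 3 genes most alike to each member, and the markers of the gates. Chosen with the values in view were the early-response genes, Cdk5r1, the hormone-low cells, the gate without Mia, the looser melanotroph gate and the mean of per-cell CPM. Some genes that this rule names are not reported here.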

Additional observations from a re-analysis of the deposited data

How the results depend on the processing

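No paired analysis was possible because each group is 1 library, and no library could be left out of a ratio. Of 295 ratios of single members recomputed under 12 alternatives, 256 kept their call or lack of one. Of these, 24 had a ratio that crossed 1 without being called. A further 23 were no longer called, 16 became called, and 0 called ratios changed sign. The minimum of 50 UMIs only leaves ratios out, so its 27 ratios kept their call by design. The doubled Pcsk2 threshold was also counted on ratios of stem-gated cells, which it can change only through cells that pass both gates. Likewise, the stricter stem gate was also counted on ratios of melanotroph-gated cells. The count of 256 therefore overstates how far the calls hold.

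In melanotroph-gated cells at 40 weeks, plain CPM gave 2 members higher and 0 lower, the looser gate 2 higher, the mean of the per-cell CPM 2 higher and 1 lower, and the stricter filter (10% mitochondrial UMIs, 1000 genes) 1 lower. Of all genes tested there, 31.5% were higher and 7.07% lower with plain CPM, against 14.4% and 13.7% with the scaling. In WT stem-gated cells, members lower at 40 weeks numbered 3 with 3 or more gate genes, 3 in hormone-low cells, 1 with both, and 2 with the gate without Mia. Of all genes tested, 14.8%, 17.2%, 17.2% and 15.2% were lower in these 4 settings. The count of members higher at 14 weeks ranged from 3 to 5 in stem-gated and from 2 to 4 in melanotroph-gated cells, and 0 were lower under any alternative run there. With the scaling and the gates of the main results, 10.3% and 15.3% of all genes tested were higher, and 7.37% and 7.83% lower.

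The share of stem-gated cells at 14 weeks (WT, p25OE) and in WT at 40 weeks was 8.36%, 6.29% and 8.06% with 3 or more gate genes, 8.22%, 6.38% and 21.2% with the stricter filter, 5.91%, 6.13% and 4.18% for hormone-low cells, and 8.82%, 7.12% and 8.57% without Mia. Read after thinning to 1000 UMIs it was 6.02%, 5.44%, 7.24% and, in p25OE at 40 weeks, 0.0906%. In WT at 40 weeks it was 18.4% with cells of both gates and 15.8% without the 5% of cells with the most UMIs. The share of stem-gated cells with a UMI of Sox2 was 37.7%, 49.6% and 12.8% after thinning to 2000 UMIs in the first 3 libraries, and 74.0%, 71.5%, 27.0% and 42.9% in all 4 without thinning. Depth limits Dll1, Jag1 and Dlk2, which had at most 77 UMIs in any stem-gated or melanotroph-gated group, and Notch1 and Notch3 in melanotroph-gated cells.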
